A study of Mus musculus with 2 samples.

Results

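Fc gamma receptors are the leukocyte receptors that recognize the constant part of IgG. The genes described here are 6 mouse genes found by name in the gene column of both count tables, of 23946 genes counted in at least 1 of the libraries. They are the activating receptors Fcgr1, Fcgr3 and Fcgr4, the inhibitory receptor Fcgr2b, the signaling chain Fcer1g and the receptor-like gene Fcrls. All 6 had unique molecular identifiers (UMIs, each tagging 1 captured mRNA molecule) in both libraries.

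Live CD45+ cells, that is all leukocytes, were sorted from hearts of female wild-type C57BL6 mice and profiled by droplet single-cell RNA-Seq of mRNA 3′ ends. Takotsubo syndrome (TTS) is an acute stress cardiomyopathy, and the TTS library came from mice given 1 intraperitoneal injection of 200 mg/kg isoproterenol (ISO), a beta-adrenergic agonist, 24 hours earlier. The mice were between 8 and 16 weeks old. The Control library came from mice given vehicle according to the methods of the study, but its label gives the same isoproterenol injection as that of TTS and marks it as Control in the title alone. Every comparison below rests on that title. Each library pooled the cells of 3 hearts. With 1 library per group there is no replicate, so no test between the groups was possible, and every interval below is a 95% interval that covers counting error only. Differences in the mix of cells, in the pooled animals and in library preparation cannot be told apart from the treatment.

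IgG bound to a particle or a cell crosslinks these receptors. The activating receptors carry no signaling motif of their own and depend on the Fcer1g chain, whose immunoreceptor tyrosine-based activation motif (ITAM) is phosphorylated by Src family kinases and then recruits Syk to drive phagocytosis, the oxidative burst and cytokine release. Fcgr2b carries an inhibition motif (ITIM) that recruits the phosphatase SHIP-1, encoded by Inpp5d, and sets the threshold of the response. It is the only receptor of this family on B cells, whereas macrophages and monocytes carry activating and inhibitory forms together.

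The coding sequences of these opposing motifs are shown because the balance between them is what the receptor counts below describe. Both were read from GENCODE release M21 transcripts on GRCm38, 5′ to 3′ on the coding strand, with the codons of the motif tyrosines in capitals.
Fcer1g ITAM: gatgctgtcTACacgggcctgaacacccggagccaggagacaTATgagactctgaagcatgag
Fcgr2b ITIM: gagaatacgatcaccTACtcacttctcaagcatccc
The Fcer1g stretch covers codons 62 to 82 of an 86-residue protein, with tyrosines at positions 65 and 76. It lies on the minus strand in the last 2 of 5 exons, at chr1:171230067-171230081 and chr1:171229880-171229927. The Fcgr2b stretch covers codons 314 to 325 of a 340-residue protein, with the tyrosine at position 319, and lies within the last of 10 exons at chr1:170961062-170961097.

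Fcgr2b, Fcgr4, Fcgr3 and Fcer1g sit together on chromosome 1 within 276 kb of GRCm38 (chr1:170958617-171234365), with Fcgr4 on the plus strand and the others on the minus strand. Fcgr1 (chr3:96282909-96293969) and Fcrls (chr3:87250758-87263738) lie apart from each other on the minus strand of chromosome 3. Fcgr2b overlaps the antisense gene Gm38204, Fcgr3 overlaps Mir6546 and Fcgr4 overlaps the small nuclear RNA gene Gm26110. The strand setting of the counting was not given in the sources used here, so reads of Fcgr2b and its antisense partner cannot be told apart. The 166 words of 50 bases that Fcgr3 shares with Fcgr2b lie outside the last 600 bases of the main transcript, where 3′ reads fall, and no member shared such a word with another gene within those bases.

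The start regions are shown for the activating receptors, which all pair with the same chain and differed between the libraries in different directions. Each line gives 100 bases of GRCm38.p6 before the RefSeq start, read along the gene and ending for Fcgr4 6 bases short of that start, with the reverse complements of the purine-rich element GAGGAAG and of the Ets-type element GGAAGT in capitals.
Fcgr1 (chr3:96293970-96294069, minus strand): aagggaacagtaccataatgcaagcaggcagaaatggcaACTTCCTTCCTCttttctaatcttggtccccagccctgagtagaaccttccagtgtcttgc
Fcgr3 (chr1:171059404-171059503, minus strand): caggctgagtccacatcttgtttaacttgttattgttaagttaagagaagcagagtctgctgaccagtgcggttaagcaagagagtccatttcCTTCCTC
Fcgr4 (chr1:171018820-171018919, plus strand): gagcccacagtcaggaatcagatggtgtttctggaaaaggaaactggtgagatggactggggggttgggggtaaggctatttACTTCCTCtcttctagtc
Searched on both strands within 250 bases before the start, GAGGAAG was present in Fcgr1, Fcgr3, Fcgr4 and Fcrls and in 10.4% of 27025 RefSeq promoters. GGAAGT was present in Fcgr1, Fcgr2b, Fcgr4 and Fcrls and in 19.99% of the promoters, and it overlapped GAGGAAG in Fcgr1 and Fcgr4. An interferon response-type motif was found in Fcgr4 and in 3.04% of the promoters, and a STAT-type motif in Fcgr1 and in 7.18%. The Fcgr3 window lies inside the longer GENCODE gene model of Fcgr3. These are matches of letters, chosen after the sequences were seen, and binding at them was not measured.

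After the cell filters of the study, 5641 Control cells with a median of 4790 UMIs and 5437 TTS cells with a median of 8537 UMIs remained, and 15 cell barcodes occurred in both libraries. Cells were assigned to leukocyte classes from the UMIs of marker genes, none of them a member, and are called macrophage-like and so on. Barcodes with markers of 2 lineages, 1482 in Control and 958 in TTS, had median depths of 11970 and 10628 UMIs and were left out of the classes. In Control they held 4148 of the 7223 Fcrls UMIs, 7775 of the 13545 Fcgr3 UMIs and 1674 of the 2976 Fcgr1 UMIs. Macrophage-like cells held fewer, at 2934, 4975 and 1113, so the class levels below leave out much of the receptor RNA of Control. There were 994 macrophage-like cells in Control and 1973 in TTS, 59 and 1264 classical monocyte-like cells, and 1883 and 36 B cell-like cells. In every class of at least 25 cells, more of the 10 leading genes were markers of that class than of any other. Cells were assigned by these same markers, so that lead was built in and does not test the classes. Ly6g, a defining neutrophil marker, was at 0 in the neutrophil-like cells of both libraries.

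**Figure D1:**
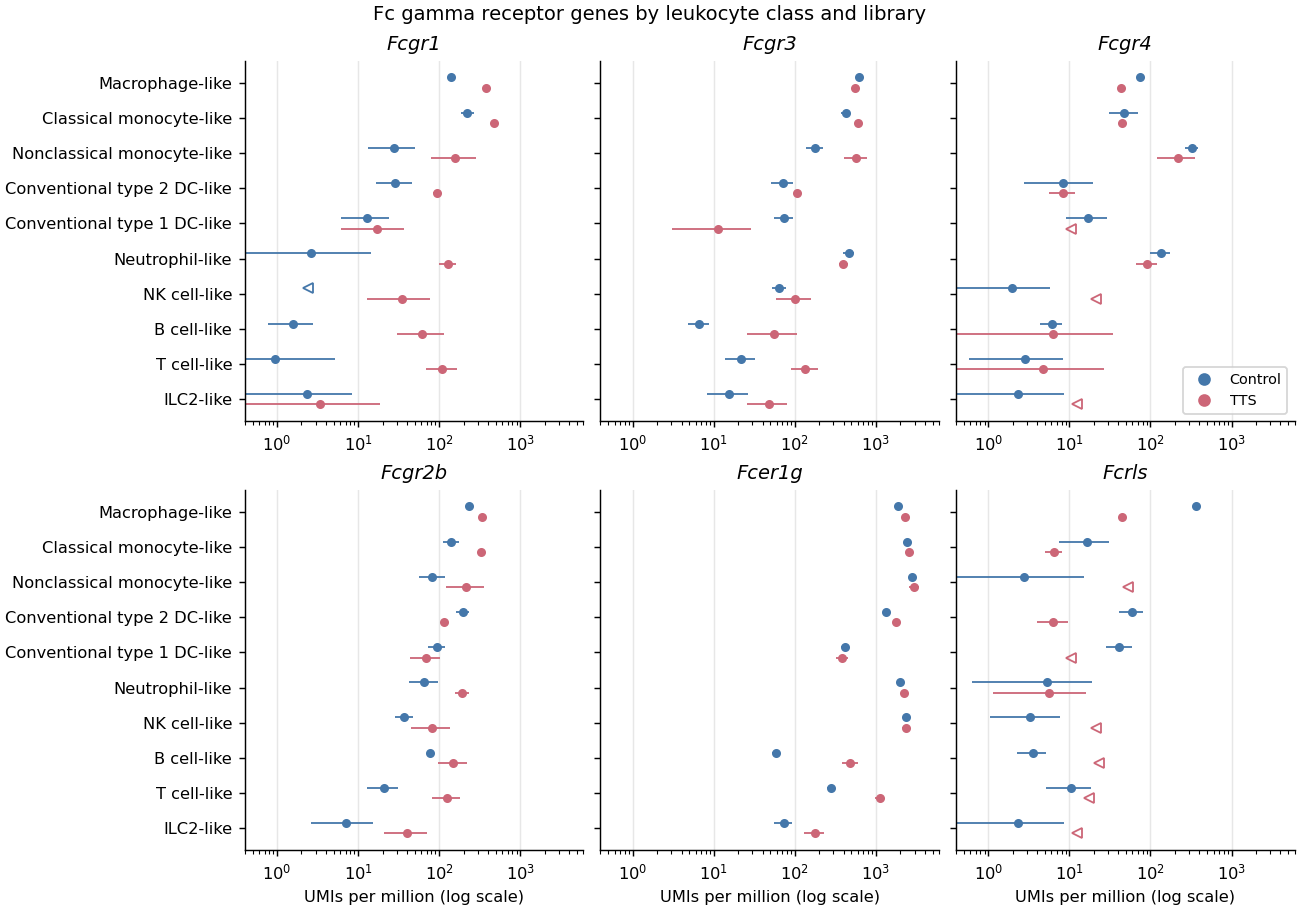
Level of each gene in CPM (log scale) by leukocyte class in the Control and TTS libraries, with points for the level, bars for the exact Poisson 95% interval and open triangles for the upper limit where no UMI was counted (classes with at least 10 cells). Fcgr1 and Fcrls moved in opposite directions in macrophage-like cells, from 139 to 375 and from 367 to 44.1.

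Levels are given as CPM, the UMIs of the gene per 1000000 UMIs of the class, both summed over its cells. Fcgr1 encodes CD64, the high-affinity receptor for IgG. It stood at 139 (131 to 148) in Control and 375 (367 to 383) in TTS macrophage-like cells, a log2 ratio of 1.43 (1.34 to 1.52). The intervals of the libraries were far apart, and only 4.61% of all 12851 genes with at least 20 UMIs in these cells had a larger ratio. In classical monocyte-like cells, which held the highest level of the classes with at least 25 cells in both libraries, Fcgr1 was 223 (186 to 267) in Control and 478 (466 to 491) in TTS. In conventional type 2 DC-like cells it was 28.6 (16.7 to 45.8) in Control and 93.1 (83.4 to 104) in TTS. The gene was thus higher in the TTS library in each of these myeloid classes, by log2 ratios from 1.09 to 1.66. Markers of monocytes and macrophages moved with these values. The 7 classical monocyte markers, all above 0, summed to 246 CPM (3.09% of their monocyte-like level) in Control and to 3085 CPM (27.0%) in TTS macrophage-like cells. The 14 macrophage markers summed to 3882 CPM (11.9% of their macrophage-like level, with Arg1 at 0) in Control and to 9015 CPM (38.3%) in TTS classical monocyte-like cells. In conventional type 2 DC-like cells the macrophage markers summed to 4.30% of their macrophage-like level in Control, with Arg1 at 0, and to 7.14% in TTS. The monocyte markers there summed to 13.8% of their monocyte-like level in Control and to 14.0% in TTS. The part of such RNA in the differences of any of these classes, for Fcgr1 and the other members, was not tested.

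Fcgr3 encodes CD16, a low-affinity activating receptor, and was the most abundant of the 4 IgG-binding receptors in macrophage-like cells of both libraries. Its level there was 622 (605 to 640) in Control and 551 (541 to 561) in TTS, a log2 ratio of −0.18 (−0.22 to −0.13) whose sign turned to 0.11 when centred on the median of all genes and to 0.09 with TMM factors, which are scaling factors computed with most genes taken as unchanged. The median log2 ratio of all genes in these cells was −0.29. Relative to it Fcgr1 differed by 1.71, Fcgr2b by 0.81, Fcer1g by 0.57, Fcgr4 by −0.50 and Fcrls by −2.77. In classical monocyte-like cells Fcgr3 was 427 (374 to 485) in Control and 604 (590 to 619) in TTS. The order of macrophage-like and classical monocyte-like cells for Fcgr3 was thus opposite in the libraries, and in neither did their intervals overlap. Among the barcodes of 2 lineages, left out of the classes, the log2 ratio of Fcgr3 was 0.37 (0.32 to 0.42).

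Fcgr4 encodes CD16-2, an activating receptor typical of nonclassical monocytes and neutrophils. Of all classes it was highest in nonclassical monocyte-like cells, at 325 (269 to 389) in Control and 217 (121 to 357) in TTS, where only 12 such cells were found. Neutrophil-like cells came next, at 134 (99.4 to 176) in Control and 90.6 (67.0 to 120) in TTS, with overlapping intervals. Macrophage-like cells held 74.3 (68.5 to 80.5) in Control and 43.0 (40.3 to 45.9) in TTS, a log2 ratio of −0.79 (−0.94 to −0.64). In classical monocyte-like cells the log2 ratio was −0.12 (−0.66 to 0.54) and in conventional type 2 DC-like cells −0.14 (−1.41 to 1.70), so a difference in Fcgr4 was resolved in macrophage-like cells but not in these classes. Among the barcodes of 2 lineages it was not resolved either, at 0.09 (−0.05 to 0.23).

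Fcgr2b, the inhibitory receptor, was 236 (225 to 246) in Control and 338 (330 to 346) in TTS macrophage-like cells, a log2 ratio of 0.52 (0.45 to 0.59). In classical monocyte-like cells it was 140 (110 to 175) in Control and 328 (317 to 338) in TTS, a log2 ratio of 1.22 (0.90 to 1.57). In conventional type 2 DC-like cells it was 195 (161 to 234) in Control and 115 (104 to 126) in TTS, a log2 ratio of −0.77 (−1.07 to −0.46). Fcgr2b was therefore higher in TTS macrophage-like and monocyte-like cells and lower in TTS type 2 DC-like cells, and in none of the 3 classes did the libraries overlap.

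Fcer1g, the shared chain, was far more abundant in macrophage-like cells than any of the activating Fc gamma receptors. It was 1872 (1842 to 1903) in Control and 2279 (2260 to 2300) in TTS macrophage-like cells, a log2 ratio of 0.28 (0.26 to 0.31). Of the classes with at least 25 cells, nonclassical monocyte-like cells held the highest Control level at 2824 (2654 to 3002). NK cell-like cells, in which the chain also pairs with Ncr1 and other receptors, held 2380.0 (2303 to 2459) in Control and 2334 (2111 to 2575) in TTS. Classical monocyte-like and NK cell-like cells overlapped in both libraries, and so did neutrophil-like and macrophage-like cells, at 1979 and 1872 in Control and at 2213 and 2279 in TTS. Of the classes with at least 25 cells, the lowest Control level was in B cell-like cells, at 58.3.

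Fcrls encodes a protein with Fc receptor-like and scavenger receptor domains and is best known as a marker of microglia and other tissue macrophages. It was 367 (354 to 381) in Control and 44.1 (41.3 to 47.0) in TTS macrophage-like cells, a log2 ratio of −3.06 (−3.16 to −2.95). No other member differed as much in these cells. In conventional type 2 DC-like cells it was 58.9 (41.0 to 81.9) in Control and 6.33 (4.01 to 9.50) in TTS, and in classical monocyte-like cells it was 16.4 (7.48 to 31.0) in Control and 6.39 (5.02 to 8.02) in TTS. Of the classes, macrophage-like cells held the highest Fcrls level in both libraries.

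Counted at a 2-fold difference, 1 of the 6 members was higher and 1 lower in TTS macrophage-like cells, where 8.55% of all genes were 2-fold higher and 21.8% were 2-fold lower. In classical monocyte-like cells 2 members were higher and 1 was lower, against 12% and 18.1% of all genes. In conventional type 2 DC-like cells 1 was higher and 1 was lower, against 8.71% and 10.6%. In neutrophil-like cells 2 of the 5 members with at least 20 UMIs were higher and 0 were lower, against 19.8% and 11.4% of all genes, and the same counts were 3 and 0 of 5 in nonclassical monocyte-like cells, against 9.09% and 11.7%. In conventional type 1 DC-like cells 0 of 4 members were higher and 2 were lower, against 8.72% and 11.7%.

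**Figure D2:**
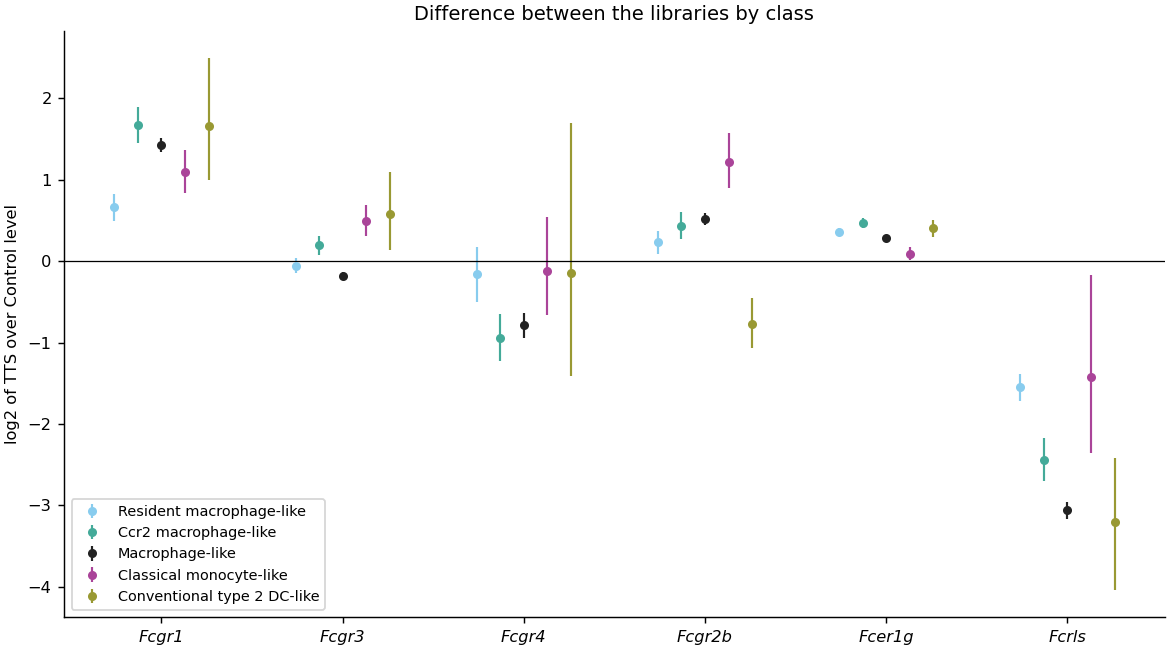
Log2 ratio of the TTS over the Control level for each gene, with exact conditional binomial 95% intervals, in macrophage-like cells, 2 of their subsets and 2 other myeloid classes. Fcgr1 lies above 0 in all 5 groups and Fcrls below 0 in all 5, whereas Fcgr2b lies below 0 in conventional type 2 DC-like cells at −0.77.

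The make-up of the macrophage-like class differed between the libraries, so the same genes were read within its subsets. Resident cells, marked by genes such as Lyve1 and Timd4, numbered 584 in Control and 214 in TTS, and Ccr2 cells numbered 139 and 578. Arg1 cells, marked by at least 2 of Arg1, Spp1, Inhba and Slpi, numbered 0 and 1086. Cells that passed as resident or Arg1 cells were taken out of the Ccr2 cells. The Ccr2 cells of TTS are thus those left after the Arg1 cells, whereas in Control no cell was taken out as an Arg1 cell. In resident cells Fcrls was 481 (461 to 501) in Control and 165 (148 to 183) in TTS, a log2 ratio of −1.54 (−1.71 to −1.38). In Ccr2 cells it was 186 (166 to 208) in Control and 34.4 (29.8 to 39.4) in TTS, a log2 ratio of −2.44 (−2.70 to −2.18). Fcrls was therefore lower in TTS within both subsets and not only across the class, and it was lowest of the subsets in Arg1 cells at 26.6 (23.9 to 29.5). The subsets were not alike in the libraries either. The 7 classical monocyte markers summed to 227 CPM (2.85% of their monocyte-like level) in Control and 1293 CPM (11.3%) in TTS resident cells. In Ccr2 cells they summed to 401 CPM (5.04%) in Control and 2762 CPM (24.1%) in TTS. The part of these shifts in the subset differences of any member was not tested.

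Within the same subsets Fcgr1 was 151 (140 to 162) in Control and 239 (219 to 261) in TTS resident cells, and 115 (98.9 to 132) in Control and 365 (350 to 381) in TTS Ccr2 cells. The log2 ratios were 0.66 (0.50 to 0.83) and 1.67 (1.46 to 1.89), with the highest Fcgr1 level of the subsets, 406 (395 to 417), in Arg1 cells. Fcgr4 in resident cells was 54.1 (47.7 to 61.2) in Control and 48.5 (39.6 to 58.8) in TTS, with overlapping intervals, and in Ccr2 cells it was 92.7 (78.6 to 109) in Control and 48.3 (42.8 to 54.3) in TTS. The Fcgr4 difference was thus seen in Ccr2 cells and not resolved in resident cells. Fcgr3 was 711 (687 to 735) in Control and 684 (649 to 720) in TTS resident cells, and 457 (425 to 491) in Control and 524 (506 to 543) in TTS Ccr2 cells, so the sign found over the whole class was not seen in Ccr2 cells. Fcgr2b had log2 ratios of 0.23 (0.09 to 0.37) in resident and 0.43 (0.27 to 0.60) in Ccr2 cells, and Fcer1g of 0.36 (0.31 to 0.41) and 0.47 (0.41 to 0.53). Past 2-fold, resident cells had 0 members higher and 1 lower, against 7.67% and 9.05% of all genes, and Ccr2 cells had 1 and 1, against 8.7% and 13.7%.

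**Figure D3:**
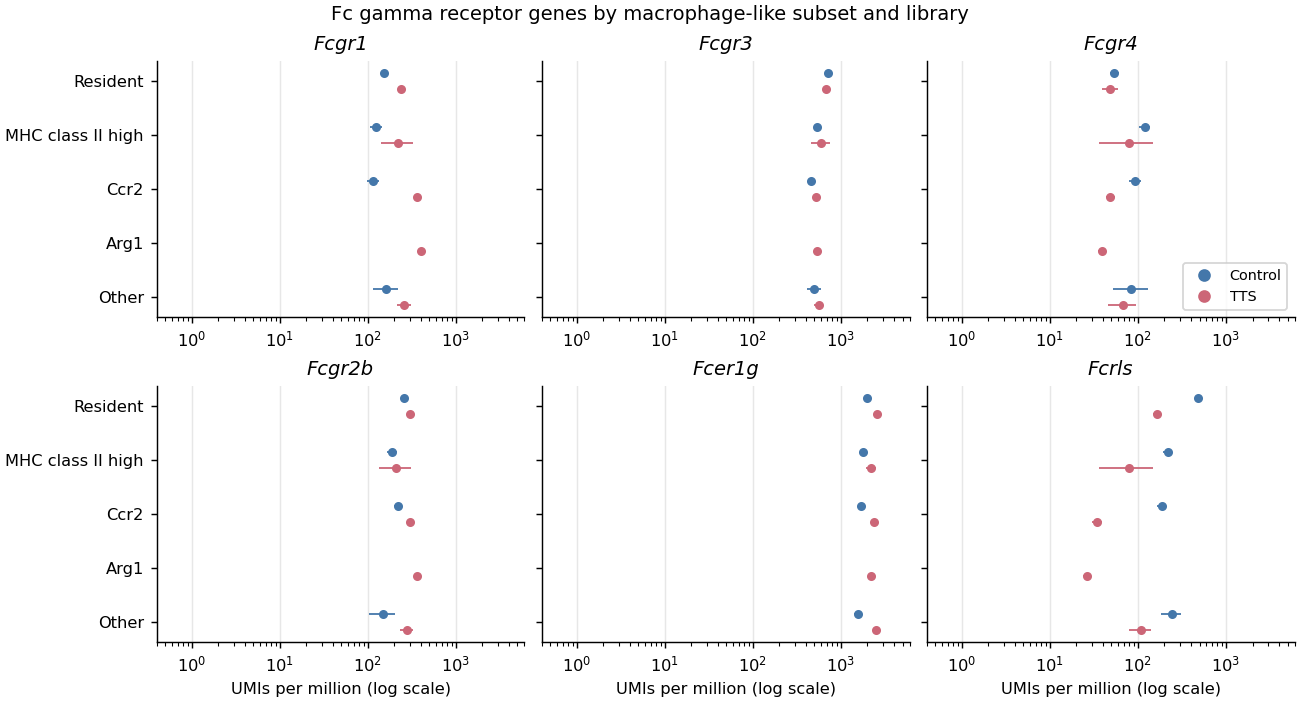
Level of each gene in CPM (log scale) by macrophage-like subset in the Control and TTS libraries, with exact Poisson 95% intervals (no Arg1 cell was found in Control). The resident and Ccr2 cells of TTS lie below those of Control for Fcrls, at 165 against 481 and at 34.4 against 186.

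The balance of the receptors was read as each gene's share of the UMIs of Fcgr1, Fcgr2b, Fcgr3 and Fcgr4 together. Macrophage-like cells had 8565 such UMIs in Control and 28635 in TTS. The inhibitory Fcgr2b made up 22.0% (21.1 to 22.9) in Control and 25.9% (25.4 to 26.4) in TTS. The difference was 3.88 percentage points over the whole class, while it was 1.82 points within resident cells and −0.76 points within Ccr2 cells. Among the activating receptors Fcgr1 went from 12.99% to 28.7%, Fcgr3 from 58.1% to 42.2% and Fcgr4 from 6.94% to 3.29%. Activating UMIs numbered 3.55 (3.37 to 3.74) per Fcgr2b UMI in Control and 2.87 (2.79 to 2.94) in TTS, and the shares of Fcgr1 and Fcgr3 thus differed more between the libraries than that of the inhibitory receptor.

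Other classes had a receptor make-up of their own. In Control neutrophil-like cells Fcgr3 made up 69.7% (63.6 to 75.3) and Fcgr4 20.1% (15.3 to 25.5). In Control nonclassical monocyte-like cells Fcgr4 made up 53.2% (46.4 to 59.9). In Control B cell-like cells Fcgr2b made up 84.5% (81.4 to 87.2). Conventional type 2 DC-like cells were the class in which the inhibitory share differed most between the libraries among classes with at least 100 receptor UMIs in each, at 64.4% (57.0 to 71.4) of 180 UMIs in Control and 35.5% (32.8 to 38.3) of 1174 UMIs in TTS. Their activating UMIs per Fcgr2b UMI were 0.552 (0.4001 to 0.755) in 54 Control cells and 1.82 (1.61 to 2.05) in 404 TTS cells. By UMIs the inhibitory form was thus in excess in Control and the activating forms in TTS. Macrophage markers in these cells summed to 4.30% of their macrophage-like level in Control, with Arg1 at 0, and to 7.14% in TTS. Classical monocyte markers summed to 13.8% of their monocyte-like level in Control and to 14.0% in TTS. The part of RNA of those cells in this difference was not tested.

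**Figure D4:**
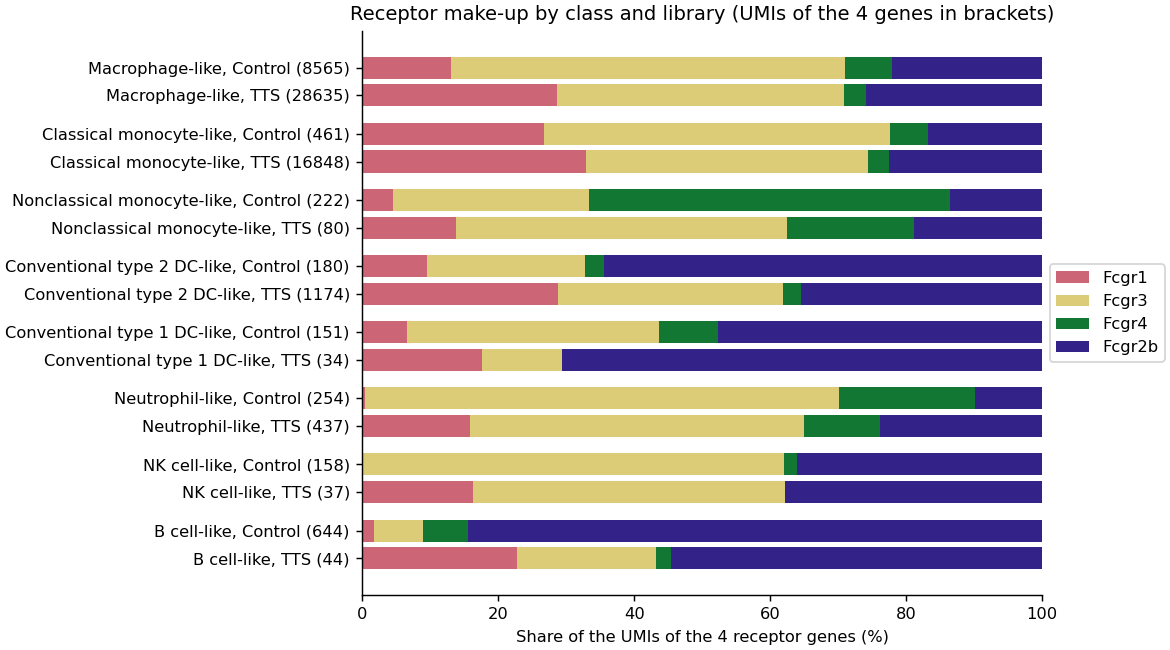
Share of each receptor gene in the UMIs of Fcgr1, Fcgr3, Fcgr4 and Fcgr2b together (percent, stacked to 100) by class and library, with the number of UMIs in brackets. Fcgr1 takes 12.99% in Control and 28.7% in TTS macrophage-like cells, and Fcgr2b 64.4% in Control and 35.5% in TTS conventional type 2 DC-like cells.

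Fcer1g had more UMIs than the activating receptors together in each class with at least 25 cells. In Control B cell-like cells its 413 UMIs were fewer than the 544 of Fcgr2b. There were 2.24 (2.18 to 2.31) Fcer1g UMIs per activating receptor UMI in Control and 2.35 (2.32 to 2.39) in TTS macrophage-like cells. The ratio was 3.47 (3.09 to 3.89) in Control and 2.29 (2.24 to 2.33) in TTS classical monocyte-like cells, and 36.1 (29.7 to 44.5) in Control NK cell-like cells. The proportion of chain to receptors thus differed little in macrophage-like cells, while in monocyte-like cells the receptors were higher in TTS and the chain was hardly so, at a log2 ratio of 0.09 (0.01 to 0.17).

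Per cell, shares with a UMI were compared after each cell was thinned to 1000 UMIs, since TTS cells were deeper. Fcgr1 was seen in 13.7% (11.6 to 15.98) of 994 Control and 29.9% (27.9 to 31.98) of 1973 TTS macrophage-like cells, against 52.4% and 86.1% without thinning. Fcrls was seen in 28.7% (25.9 to 31.6) and 4.56% (3.68 to 5.58), against 68.7% and 19.9% without thinning. As a background, Fcgr1 was seen in 0.159% of 1881 thinned B cell-like cells and Fcrls in 0.319% in Control, where their median depth was 3248 UMIs against 6476.5 in macrophage-like cells. In TTS, where macrophage-like cells had a median depth of 9139 UMIs, Fcgr1 was seen in 2 of 33 thinned T cell-like cells (6.06%, median depth 3984 UMIs), in 1 of 31 NK cell-like cells (3.23%) and in 0 of 73 ILC2-like cells, which allows a share of up to 4.11%. Fcrls was seen in 0 of these T cell-like cells, which allows a share of up to 9.09%, so these few cells do not set a background for Fcrls in TTS.

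An activating receptor alone was seen in 42.3% (39.2 to 45.4) of thinned Control and 41.9% (39.7 to 44.1) of thinned TTS macrophage-like cells, and an activating receptor with Fcgr2b in 13.2% (11.1 to 15.4) and 18.3%. Fcgr2b alone was seen in 8.35% and 9.83%. Without thinning the cells with both forms were 66.6% in Control and 85.0% in TTS. At full depth most macrophage-like cells of each library therefore had UMIs of both an activating and the inhibitory receptor.

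Neutrophil-like and lymphoid classes were small in TTS, and the summed level of macrophage markers in them was higher there. The left-out barcodes of 2 lineages held neutrophil markers too, at 3.39% of their neutrophil-like level in Control and 21.2% in TTS. The neutrophil-like cells are thus not all barcodes with neutrophil transcripts. In neutrophil-like cells, 120 in Control and 93 in TTS, Fcgr3 was 463 (398 to 537) in Control and 398 (346 to 454) in TTS, with overlapping intervals. Fcgr2b was 65.4 (42.4 to 96.6) in Control and 192 (157 to 233) in TTS. Fcgr1 had 1 UMI in Control and 69 in TTS, a log2 ratio of 5.03 (3.08 to 10.9). In the same cells the 14 macrophage markers summed to 762 CPM in Control, with 12 above 0 and Trem2 and Arg1 at 0, and to 1540.1 in TTS, with 14 above 0. These sums were 2.34% and 6.54% of those in macrophage-like cells. The 7 classical monocyte markers summed to 20.02% of their level in monocyte-like cells in Control, with Chi3l3 at 0, and to 51.4% in TTS, with all 7 above 0. The part of these markers' cells in the Fcgr1 and Fcgr2b differences of neutrophil-like cells was not tested.

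In NK cell-like cells Fcgr3, which encodes the CD16 of these cells, was 63.9 (51.9 to 77.9) in Control and 99.2 (57.8 to 159) in 31 TTS cells, with overlapping intervals. Fcgr2b, which in B cells dampens antigen receptor signaling, was 76.8 (70.4 to 83.5) in 1883 Control and 149 (95.7 to 222) in 36 TTS B cell-like cells. Among Control B cell-like cells the activating receptors were far below Fcgr2b, at 1.55 for Fcgr1, 6.49 for Fcgr3 and 6.07 for Fcgr4. The signaling chain was higher in TTS in 3 of the 4 lymphoid classes, and in ILC2-like cells it was 72.9 in Control and 176 in TTS. Fcer1g was 58.3 (52.8 to 64.2) in Control and 479 (378 to 599) in TTS B cell-like cells, and 279 (248 to 312) in Control and 1111 (973 to 1263) in TTS T cell-like cells. All 4 members with at least 20 UMIs were 2-fold higher in TTS T cell-like cells, against 12.8% of all genes, and 3 of 6 in TTS B cell-like cells, against 16.4%. In ILC2-like cells both members with at least 20 UMIs were 2-fold higher, against 7.73%, and in NK cell-like cells 1 of 3, against 8.9%. No member was 2-fold lower in these classes, where 12.6% of all genes were lower in T cell-like, 11.6% in B cell-like, 6.4% in ILC2-like and 16.1% in NK cell-like cells. The macrophage markers in the 4 lymphoid classes summed to between 243 and 554 CPM in Control and between 670.3 and 1637 in TTS, with 13 or 14 of 14 above 0 in Control and 12 to 14 in TTS. One of them, Arg1, ranked 7 among the leading genes of Control ILC2-like cells, so the sum in ILC2-like cells is not a measure of macrophage RNA alone. Trem2 was at 0 in Control NK cell-like and ILC2-like cells, Ms4a7 in TTS NK cell-like and ILC2-like cells and Trem2 in TTS NK cell-like cells. The leading genes of T cell-like cells also differed, with Cd163l1 at rank 1 in TTS and at rank 9 in Control. The part of macrophage RNA, or of a different mix of T cells, in the lymphoid differences was not tested. When the T cell-like level of the same library was subtracted from macrophage-like cells, the log2 ratio of Fcgr1 was 0.94, that of Fcgr2b was −0.0060 and that of Fcer1g was −0.45, so the higher Fcgr2b and Fcer1g of TTS macrophage-like cells were not seen after that subtraction. The T cell-like level is not an even background, since 48.5% of the 33 TTS T cell-like cells had a UMI of Fcer1g and the others had none. The levels that would come along with the macrophage markers alone in these cells were 104 CPM of Fcer1g and 15.5 CPM of Fcgr2b, beside the 1111 and 124 subtracted. Classical monocyte markers in T cell-like cells summed to 3.67% of their monocyte-like level in Control and to 7.75% in TTS. The level that comes along with those markers is not in these values and was not tested.

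Over all kept cells of a library, Fcgr1 was 71.5 (68.9 to 74.1) in Control and 340 (335 to 344) in TTS, which is 4.75-fold. With the class make-up of Control and the levels of TTS it would have been 3.42-fold, and with the levels of Control and the make-up of TTS 1.73-fold. Fcer1g was 1190 (1179 to 1200) in Control and 2209 (2196 to 2221) in TTS, which is 1.86-fold, with 1.51-fold for levels and 1.43-fold for make-up. Fcrls was 173 (169 to 177) in Control and 29.3 (27.9 to 30.8) in TTS, which is 5.92-fold lower. For Fcrls the levels alone gave 5.74-fold lower and the make-up alone 1.16-fold higher. Make-up here is each class's share of the UMIs of its library, with barcodes of 2 lineages and unassigned cells as groups of their own. The barcodes of 2 lineages held 19498256 of 41651434 UMIs in Control and 11891822 of 55443553 in TTS. In them B cell markers summed to 23.3% of their B cell-like level in Control and 6.13% in TTS. Neutrophil markers summed to 3.39% and 21.2% of theirs. A shift within a class or group, such as these or the Arg1 cells found in TTS alone, counts as level. Counted so, the differences of Fcgr1 and Fcrls over the whole library were larger by level than by make-up, whereas for Fcer1g both were alike. Level in this sense is not a change within 1 kind of cell, which was not tested.

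The wider pathway was read from lists of genes in macrophage-like cells, where 8.55% of all genes were 2-fold higher and 21.8% were 2-fold lower. Of 9 genes listed as other receptors of the Fcer1g chain, 5 were higher and 1 was lower, with a median log2 ratio of 1.13 beside −0.29 for all genes. Pairing was not measured, and some listed genes, Cd300lb among them, may use another chain such as Tyrobp. Clec4e, which encodes Mincle, a sensor of dying cells and mycobacterial lipid, was 132 in Control and 1404 in TTS. Clec4d, its partner, was 46.2 in Control and 459 in TTS, and Clec4n, which encodes Dectin-2, was 86.4 in Control and 369 in TTS. Cd300ld was 281 in Control and 113 in TTS. These 3 C-type lectin genes thus had larger ratios of TTS over Control than Fcgr1.

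Of 27 genes of ITAM signaling, 2 were higher and 2 lower, with a median log2 ratio of 0.20. The Src family kinase gene Fgr was 34.8 in Control and 137 in TTS, and Malt1, a protease of the CARD9 pathway, was 35.7 in Control and 134 in TTS. The lower genes were Lat, at 8.38 in Control and 2.92 in TTS, and Plcg1, at 8.26 and 3.33. The kinase gene Syk, shown for its place at the ITAM, was 178 (169 to 188) in Control and 125 in TTS and did not pass 2-fold. Of 17 genes of the inhibitory arm, 3 were higher and 1 lower, with a median of −0.14. Cd300lf, an inhibitory lipid receptor, was 5.38 in Control and 89.0 in TTS, the adapter Dok2 was 137 in Control and 345 in TTS, and Pilra was 101 in Control and 222 in TTS. Inppl1, which encodes SHIP-2, was 33.4 in Control and 15.1 in TTS, and Inpp5d, the phosphatase that Fcgr2b recruits, was 178 (169 to 187) in Control and 108 in TTS without passing 2-fold. Syk and Inpp5d were named after their values were seen.

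All 6 genes of other Fc and Fc receptor-like proteins with at least 20 UMIs were 2-fold lower in TTS macrophage-like cells, led by Fcgrt, the neonatal Fc receptor that recycles IgG, at 351 (338 to 365) in Control and 46.0 in TTS. Fcer2a, which is also one of the B cell markers, was 8.63 in Control and 1.28 in TTS, and Fcrla was 14.3 and 2.46. The 8 B cell markers, all above 0, summed to 134 CPM (2.55% of their B cell-like level) in Control and to 31.8 CPM (0.796%) in TTS macrophage-like cells, and their part in these low genes was not tested. Of the adapter chains, Tyrobp, the ITAM chain of many other myeloid receptors, was 1724 (1696 to 1753) in Control and 2325 in TTS, Hcst was 54.8 in Control and 45.8 in TTS, Cd247 was 4.38 in Control and 1.19 in TTS, and Ms4a2 had no UMI. Of 5 oxidase genes 1 was higher, Ncf4, at 120 in Control and 242 in TTS. Genes of the IgG heavy chains, the ligand itself, had between 0 and 2 UMIs in macrophage-like cells of either library.

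In neutrophil-like cells, where 19.8% of all genes were 2-fold higher and 11.4% were lower, 1 of 7 genes listed as receptors of the chain was higher and 2 were lower. Clec4n was 36.6 in Control and 327 in TTS, whereas Cd300lb was 335 in Control and 90.6 in TTS and Cd300ld was 906 in Control and 263 in TTS. Of 22 genes of ITAM signaling 1 was higher and 1 lower, and of 15 genes of the inhibitory arm 3 were higher and 1 lower. Malt1 was 70.7 in Control and 157 in TTS, Dok2 was 18.3 and 113, and Clec4a2 was 86.4 and 198. Lower there were Pik3cd, at 225 in Control and 111 in TTS, Cd300a, at 552 in Control and 220.0 in TTS, and the adapter Hcst, at 314 in Control and 153 in TTS. Tyrobp was 6136 in Control and 3897 in TTS without passing 2-fold, Cd247 had 3 and 2 UMIs, and neither Ms4a2 nor an IgG heavy chain gene had a UMI. The oxidase genes Cybb, at 340 in Control and 823 in TTS, and Ncf1, at 366 in Control and 749 in TTS, were the 2 of 5 past 2-fold. The monocyte and macrophage markers given above for these cells stand beside each of these values.

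The genes whose levels ran most like each member were found by Pearson's r of log2 levels across 19 sums of a class in a library, over 9475 genes. This is a description, since the sums share libraries and depth. Fcgr1 ran most like Msr1 (r = 0.94), the macrophage scavenger receptor, followed by Anxa3, Ccl9, Ms4a6d and Lpl. Fcgr2b ran most like Cyfip1 (r = 0.90), Ctsc, Reep3, Atp6v0b and Pid1, and Fcgr3 most like Clec4a2 (r = 0.92), Fndc3b, Tmem132a, Slc15a3 and Sdcbp. Fcgr4 ran most like Cdc42ep2 (r = 0.96), Fgd4, Cd300ld, Lst1 and Mpp1. Fcer1g ran most like Tyrobp (r = 0.96), the other ITAM chain, followed by Itgam, Hpcal1, Ccl4 and Map7d1. Fcrls ran most like Cd163 (r = 0.93), a hemoglobin scavenger receptor of resident macrophages, followed by Agmo, Slco2b1, G530011O06Rik and Stard8. Among the members, Fcgr1 and Fcgr2b had r = 0.85 and Fcer1g and Fcgr3 had r = 0.81, whereas Fcrls had r = 0.24 with Fcer1g.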

How the data were processed

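Per the labels, CD45+ heart cells were run on 10x Genomics 3′ version 3 chemistry. The authors demultiplexed with bcl2fastq 2.19.1.403, extracted barcodes and UMIs with UMI-tools 1.0.0, aligned to mm10 with STAR 2.7.3a and assigned reads with featureCounts 1.6.4. The deposited values are UMI counts per gene and barcode, without normalization, for 5927 Control and 5514 TTS barcodes holding 47382455 and 58495112 UMIs. The annotation and strand setting were not given in the sources used here.

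Cells with over 500 and under 6000 genes and under 25% mitochondrial UMIs were kept, as in the study. Each cell's marker UMIs per 10000 UMIs were compared with a threshold for each of 15 classes, with at least 3 distinct markers. Thresholds were set after the distributions were seen. Barcodes positive for 2 lineages were left out, which also served as the treatment of doublets. Macrophage-like cells were split by resident, Arg1, Ccr2 and MHC class II markers. UMIs were summed per class and library and given per 1000000 UMIs of the class (CPM) with exact Poisson intervals. Log2 ratios had 0.5 UMI added to each sum and exact conditional binomial intervals, and shares had exact Clopper-Pearson intervals. Intervals at 95% and the limit of 3 counts behind a count of 0 cover counting error only. Ratios over all genes needed at least 20 UMIs in both libraries together. Likeness was Pearson's r of log2(CPM + 10) over sums of at least 30 cells and genes with at least 500 UMIs. List genes were named by rule, the 3 largest ratios each way past 2-fold with at least 50 UMIs in macrophage-like and neutrophil-like cells, with all adapter and IgG chains. With 1 library per group no test was made. The members, lists and markers were chosen with earlier results of these data known. Ratios were tested on simulated counts and thinning on the Control macrophage-like cells themselves. The gate was run on cells drawn from the summed profiles of its own classes, which cannot test whether the classes are right. Python 3.11.15, numpy 2.4.6, scipy 1.17.1, pandas 2.3.3, scanpy 1.11.5, R 4.3.3 and edgeR 4.0.16 (TMM factors alone) were used.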

Additional observations from a re-analysis of the deposited data

Results flagged for a closer look

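Fcgr2b differed in opposite directions between classes. Its log2 ratios of TTS over Control in T cell-like and conventional type 2 DC-like cells were 2.58 and -0.77, with each interval on its own side of 0, and in macrophage-like cells the ratio was 0.52. The T cell-like value rests on 22 UMIs in Control and 26 in TTS, and the macrophage markers in those cells were 1.04% of their macrophage-like level in Control and 4.58% in TTS.

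Fcgr3 did the same, with log2 ratios in T cell-like and macrophage-like cells of 2.62 and -0.18. The T cell-like value rests on 23 UMIs in Control and 28 in TTS. With 1 library per group, neither difference between classes was tested.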

How the results depend on the processing

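Of the values recomputed, 63 stayed within the counting interval of the reported value (counts of genes: close to it), 58 moved beyond it and 7 changed sign. The causes were not tested. No sign changed for Fcgr1, Fcgr4 or Fcrls. The following are log2 ratios of TTS over Control in macrophage-like cells, in the order Fcgr1, Fcgr2b, Fcgr3, Fcgr4, Fcer1g and Fcrls where all are given. With gate thresholds doubled they were 1.59, 0.62, -0.013, -0.47, 0.38 and -2.65. With barcodes of 2 lineages kept they were 1.59, 0.68, 0.0021, -0.44, 0.46 and -2.78. Centred on the median of all genes they were 1.71, 0.81, 0.11, -0.50, 0.57 and -2.77, and with TMM factors 1.70, 0.79, 0.091, -0.52, 0.55 and -2.79. In resident cells alone they were 0.66, 0.23, -0.055, -0.15, 0.36 and -1.54, and in Ccr2 cells alone 1.67, 0.43, 0.19, -0.94, 0.47 and -2.44, both chosen after seeing the data. With the T cell-like level subtracted Fcgr1 was 0.94, Fcgr2b -0.0060, Fcgr3 -0.53 and Fcer1g -0.45. With thresholds at 0.5 times Fcgr3 was -0.27, Fcer1g 0.24 and Fcrls -3.19. With monocyte-like cells counted in Fcgr1 was 1.55, Fcgr3 -0.057 and Fcrls -3.41. Without Arg1 and Spp1 as markers Fcgr2b was 0.41, Fcer1g 0.32 and Fcrls -2.53. In cells thinned to 1000 UMIs Fcgr3 was -0.27, Fcgr4 -1.03 and Fcer1g 0.40, and as means of per-cell CPM Fcer1g was 0.33 and Fcrls -2.92.

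The difference in the Fcgr2b share was 5.35 points in thinned cells, 1.94 with the T cell-like level subtracted, 2.59 without Arg1 and Spp1, 1.82 in resident and -0.76 in Ccr2 cells. Thinned to 2000 UMIs, the difference in the share of cells was 24.9 points for Fcgr1, 10.2 for Fcgr2b, 2.90 for Fcer1g and -38.6 for Fcrls. Of the 30 genes named for likeness, 19 stayed among the 20 most alike in Control alone and 11 in TTS alone. Scrublet marked 13 Control and 0 TTS cells by its own threshold and so had not worked, and the 255 and 236 highest scores were removed in its place.

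No paired analysis was possible because each group has 1 library, and for the same reason no replicate was left out. Depth limits the classes with few cells, above all TTS lymphoid and nonclassical monocyte-like cells.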
